A study of Canis lupus familiaris with 2 samples.

Results

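Among the genes of the hypoxia response, BNIP3L, PDK1, ADM and EGLN3 were lower by more than 2-fold in MDCK cells grown under 50 cm of culture medium than under 2 cm, whereas the hypoxia-inducible factor (HIF) subunits HIF1A and ARNT and the tumour suppressor VHL differed by less than 1.5-fold. ANGPTL4 and LOX, also known as hypoxia-induced genes, were higher by more than 1.5-fold. MDCK is an established canine kidney line that forms a columnar epithelial sheet. For each culture, 40000 cells were seeded on a semipermeable membrane in serum-containing EMEM. Total RNA was taken at day 3 from 1 culture under 2-cm-high medium (2 cm H2O) and from 1 culture under 50-cm-high medium (50 cm H2O). The study refers to the cells under 2-cm-high medium as non-loaded. The cultures are called 2 cm and 50 cm here. Each was a single library, so no difference given here could be set against replicate error or tested.

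The genes described are the HIF subunits, the oxygen sensors and the hypoxia-responsive genes outside glycolysis, a list of 36 symbols chosen on pathway membership with the FPKM ratios of these cultures already known. The direction and size of those ratios are for that reason a description, and the count of genes lower or higher supports nothing beyond itself. The files named 35 of the 36 symbols among 23510 features. BNIP3 was not analysed here. FPKM is a read abundance scaled to gene length and library size. Levels of different genes compare only as well as the gene lengths and read assignment behind it, which are not known here. Ratios of 50-cm over 2-cm FPKM were taken from the values as deposited for the 32 genes above 1 FPKM in both cultures. CA9, PPFIA4 and TMEM45A lay below that minimum in at least 1 culture.

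HIF is a dimer of an oxygen-labile alpha subunit and a stable beta subunit. In the presence of oxygen, prolyl hydroxylases modify the alpha subunit, VHL recognises the modified protein and directs its destruction, and an asparaginyl hydroxylase blocks its coactivator binding. When oxygen is low, the alpha subunit accumulates and switches on genes that limit pyruvate oxidation, remove mitochondria, remodel collagen, export acid and signal to blood vessels, and it also induces some of the prolyl hydroxylases. HIF1A is controlled mainly through protein stability, so its RNA level is not a measure of HIF activity. The study's methods describe oxygen and carbon dioxide pressures and pH as similar in the upper and lower chambers of the culture device, and oxygen at the cells of these cultures was not analysed here.

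The epithelial identity of the line was visible in both libraries. All 8 epithelial markers were above 1 FPKM at 2 cm and 7 at 50 cm, where the kidney cadherin CDH16 had 0.676 FPKM against 1.96 FPKM. The 6 markers of leukocytes, endothelium, muscle and collagen-producing cells reached at most 0.181 FPKM at 2 cm and 0.0818 FPKM at 50 cm, with PTPRC, PECAM1 and CD3E listed at 0 in both. How many reads each library held is unknown, but from the lowest values a single read counted for 9.77% more FPKM at 50 cm. The median log2 ratio of the 11057 features above 1 FPKM in both cultures was 0.01. A lower share of the cells expressing a gene and less of its RNA per cell cannot be told apart in these bulk libraries.

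HIF1A, the alpha subunit present in most tissues, had 38.7 FPKM at 2 cm and 42.2 FPKM at 50 cm, a ratio of 1.09. ARNT, its beta partner, had 36.1 FPKM at 2 cm and 30.3 FPKM at 50 cm, a ratio of 0.839. In 2-cm-high medium the HIF1A level thus exceeded the ARNT level by 1.07-fold, and at 50 cm by 1.39-fold. EPAS1, which encodes the alpha subunit known from endothelium and from erythropoietin-producing kidney cells, was far lower, at 2.50 FPKM at 2 cm and 3.41 FPKM at 50 cm (ratio 1.36). HIF1A stood 15.5-fold above EPAS1 at 2 cm and 12.4-fold above it at 50 cm, and it made up 93.7% and 92.5% of the summed FPKM of the alpha subunit genes. None of the 3 subunit genes differed by 1.5-fold between the cultures. Of 2 further paralogs, HIF3A had 0.0931 FPKM at 2 cm and 0.0240 FPKM at 50 cm, values that rest on very few reads, and ARNT2 had 7.29 and 4.28 FPKM (ratio 0.587).

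EGLN3 was the member of the oxygen-sensing group that differed most. This prolyl hydroxylase, itself a known HIF target, had 11.2 FPKM at 2 cm and 4.86 FPKM at 50 cm, a ratio of 0.434 and rank 69 from the lowest ratio among the 11057 features. EGLN1, the main hydroxylase of HIF1A under normal oxygen and also HIF-inducible, had 28.9 FPKM at 2 cm and 22.5 FPKM at 50 cm (ratio 0.779). EGLN2, which is not known to be induced by hypoxia, had 24.4 FPKM at 2 cm and 29.9 FPKM at 50 cm (ratio 1.23). The order of the hydroxylase genes therefore differed between the cultures. EGLN1 was the highest at 2 cm, at 44.8% of their summed FPKM, and EGLN2 at 50 cm, at 52.2%. EGLN3 made up 17.4% of the sum at 2 cm and 8.49% at 50 cm, while the sum itself went from 64.5 to 57.2 FPKM (ratio 0.888). VHL, the substrate receptor of the ubiquitin ligase, had 25.4 FPKM at 2 cm and 28.1 FPKM at 50 cm (ratio 1.11). HIF1AN, the asparaginyl hydroxylase, had nearly equal values of 11.8 and 11.9 FPKM (ratio 1.01).

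**Figure D1:**
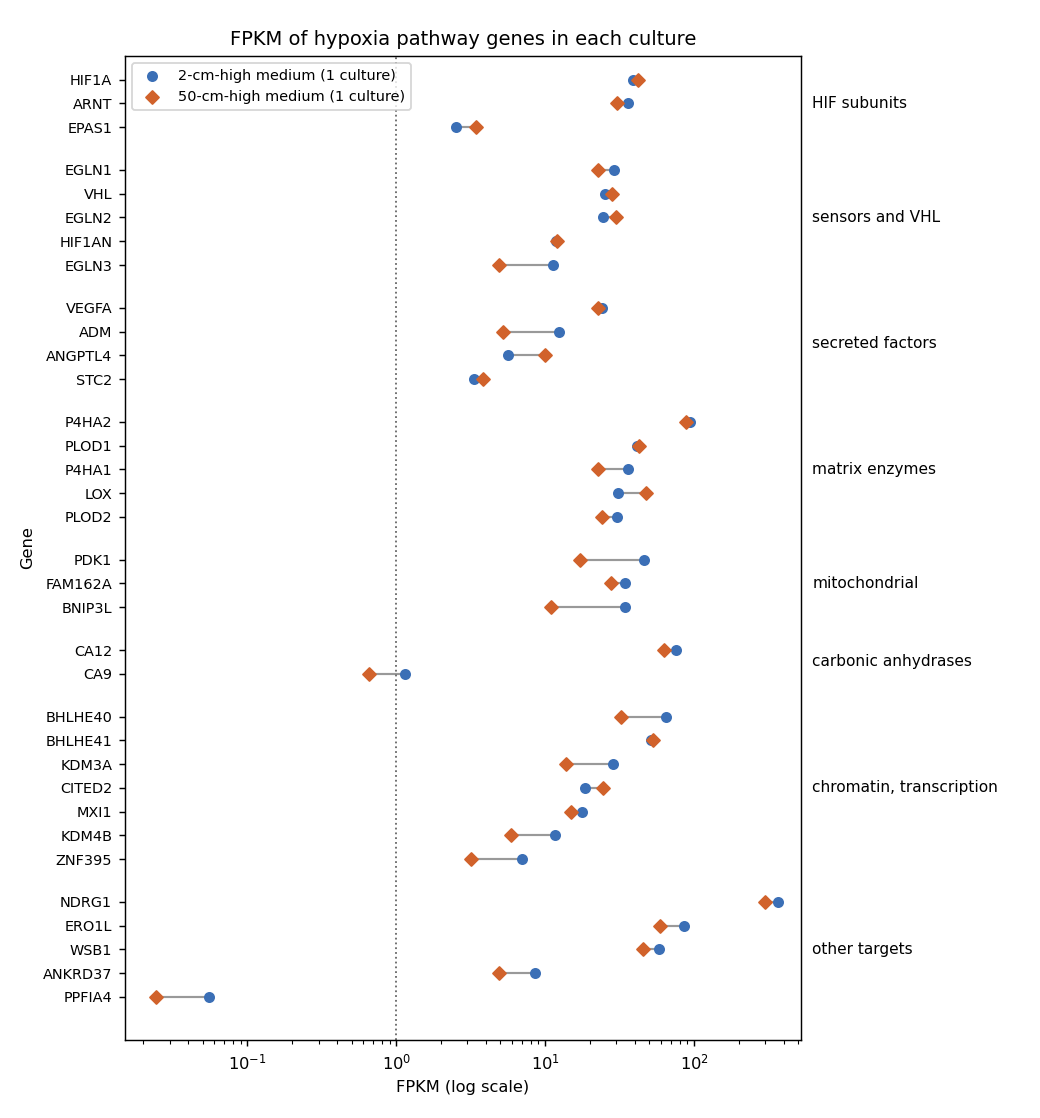
FPKM on a log scale (x axis) of the 34 genes with a value above 0, grouped by role (y axis), with blue circles for the 1 culture in 2-cm-high medium, orange diamonds for the 1 culture in 50-cm-high medium and a dotted line at 1 FPKM. The widest gaps among genes above 1 FPKM in both cultures belong to BNIP3L (34.0 and 11.0 FPKM) and PDK1 (46.3 and 17.1 FPKM), while HIF1AN and PLOD1 nearly overlap.

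Of the 28 listed HIF-responsive genes other than subunits and sensors, 24 were above 1 FPKM in both cultures. Their median ratio of 50-cm over 2-cm FPKM was 0.799 (-0.32 on the log2 scale), with 18 lower and 6 higher. With the subunits and sensors included, 21 of 32 genes were lower at any size, as were 47.4% of all features. Of the 32 genes, 7 were lower by more than 2-fold (1.28% of all features), and none was higher by more than 2-fold (0.389% of all features). Lower by more than 1.5-fold were 10 genes (5.06% of all features), and higher by more than 1.5-fold were 2 (2.13% of all features). Since the genes were listed with these ratios known, the shares over all features are given for scale only. With 1 FPKM added to both values, 4 genes in place of 7 were lower by more than 2-fold. BHLHE40, at a ratio of 0.496, was the last gene past the 2-fold line, and KDM4B, at 0.506, lay just short of it. The ratio had almost no relation to the level of the genes (Spearman's rho 0.08 and Pearson's r 0.08 across 32 genes, which are not independent and come from the same libraries).

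**Figure D2:**
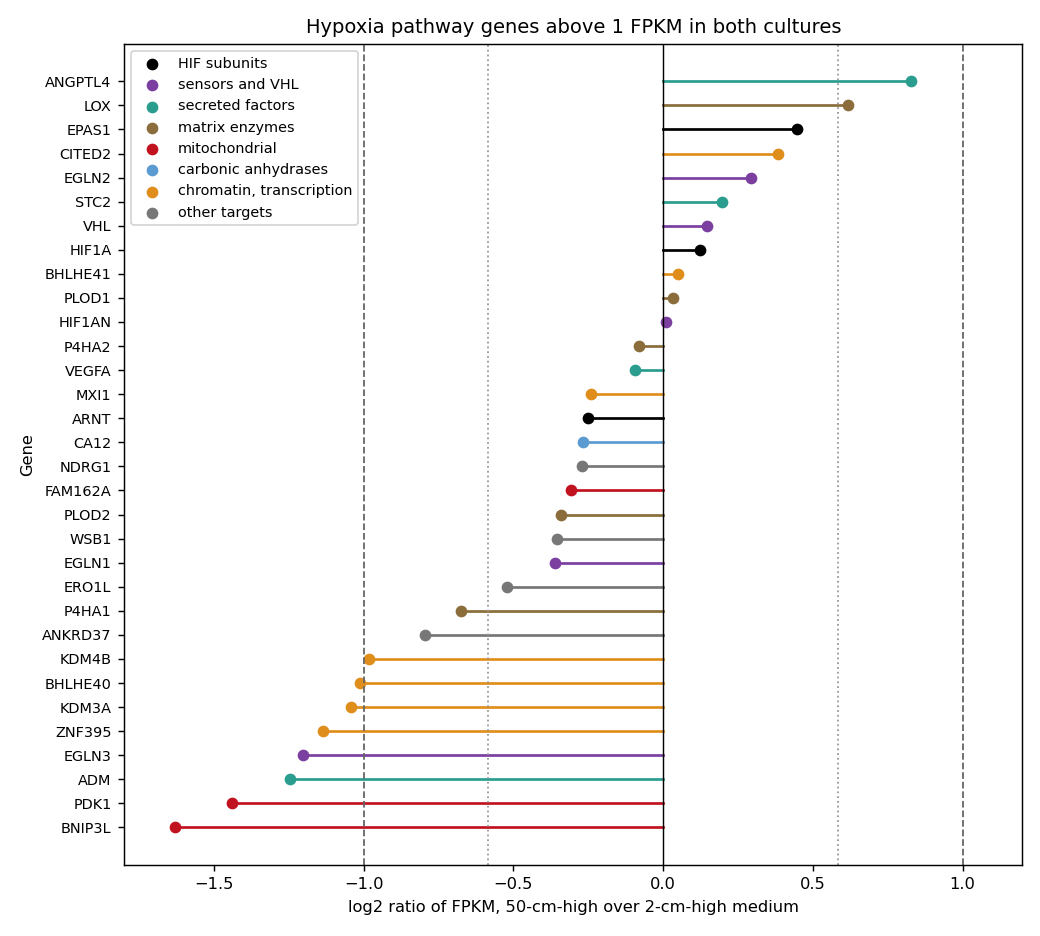
The log2 ratio of FPKM, 50-cm-high over 2-cm-high medium (x axis), for the 32 genes above 1 FPKM in both cultures (y axis, ranked), coloured by role, with dashed lines at 2-fold and dotted lines at 1.5-fold. The 7 genes past the lower dashed line run from BHLHE40 (-1.01) to BNIP3L (-1.63), and no gene passes the upper one.

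The lowest ratios of the listed genes belonged to the mitochondrial targets BNIP3L and PDK1, but not to FAM162A. BNIP3L, a receptor that marks mitochondria for removal by autophagy, had 34.0 FPKM at 2 cm and 11.0 FPKM at 50 cm. Its ratio of 0.323 was rank 12 from the lowest of the 11057 features. These features were also divided into 10 groups by mean level. In the group of BNIP3L the log2 ratios ran from -0.37 at percentile 5 to 0.44 at percentile 95, and BNIP3L lay at -1.63. That range is a spread between genes in a single pair of libraries, not replicate error. It is given for scale only, since BNIP3L was listed with its ratio known. PDK1, the kinase that phosphorylates pyruvate dehydrogenase and so keeps pyruvate out of the mitochondrial cycle, had 46.3 FPKM at 2 cm and 17.1 FPKM at 50 cm (ratio 0.369, rank 33). FAM162A, a mitochondrial protein linked to hypoxic cell death, had 34.4 FPKM at 2 cm and 27.8 FPKM at 50 cm (ratio 0.809). The summed FPKM of these 3 genes was 114.8 at 2 cm and 55.9 at 50 cm.

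The other pyruvate dehydrogenase kinases differed less than PDK1. PDK2, the highest of the family, had 110.6 FPKM at 2 cm and 102 FPKM at 50 cm (ratio 0.925), and PDK3 had 34.3 and 22.3 FPKM (ratio 0.650). PDK1 stood above PDK3 at 2 cm by 1.35-fold and below it at 50 cm, at 0.767 of its level. PDK1 took 24.2% of the summed FPKM of the 4 kinase genes at 2 cm and 12.0% at 50 cm. PDK4 was at 0.389 and 0.470 FPKM, too low for a ratio. These sums over paralogs, like those of the other families below, were made after the values had been seen. An order between genes within a culture is not altered by rescaling that culture.

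Genes for chromatin and transcription factors were the largest group of targets, with 7 above the minimum. Of these, KDM3A, BHLHE40 and ZNF395 were lower by more than 2-fold (1.28% of all features). All 3 came short of 2-fold with 1 FPKM added to both values. KDM3A, a histone lysine demethylase that needs oxygen as a substrate, had 28.5 FPKM at 2 cm and 13.8 FPKM at 50 cm (ratio 0.485). KDM4B, a demethylase of a related family, had 11.7 FPKM at 2 cm and 5.92 FPKM at 50 cm (ratio 0.506). BHLHE40, a repressor that also acts in the circadian clock, had 64.7 FPKM at 2 cm and 32.1 FPKM at 50 cm (ratio 0.496). Relatives of these genes differed less, though not all were near parity. KDM3B had 19.4 FPKM at 2 cm and 16.4 FPKM at 50 cm (ratio 0.844), KDM4A had 49.3 and 48.1 FPKM (ratio 0.976), KDM4C had 4.79 and 3.24 FPKM (ratio 0.677), and BHLHE41 had 51.1 and 52.8 FPKM (ratio 1.03). The order within 2 of these families differed between the cultures. KDM3A was 1.47 times KDM3B at 2 cm and 0.843 of it at 50 cm, and BHLHE40 was 1.27 times BHLHE41 at 2 cm and 0.607 of it at 50 cm.

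ZNF395, a zinc finger transcription factor, had 7.02 FPKM at 2 cm and 3.19 FPKM at 50 cm (ratio 0.455). MXI1, a partner of MAX that opposes MYC, had 17.6 FPKM at 2 cm and 14.9 FPKM at 50 cm (ratio 0.845). CITED2 was the member of this group with the highest ratio. It competes with HIF alpha subunits for their coactivators, and it had 18.6 FPKM at 2 cm and 24.2 FPKM at 50 cm (ratio 1.30).

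**Figure D3:**
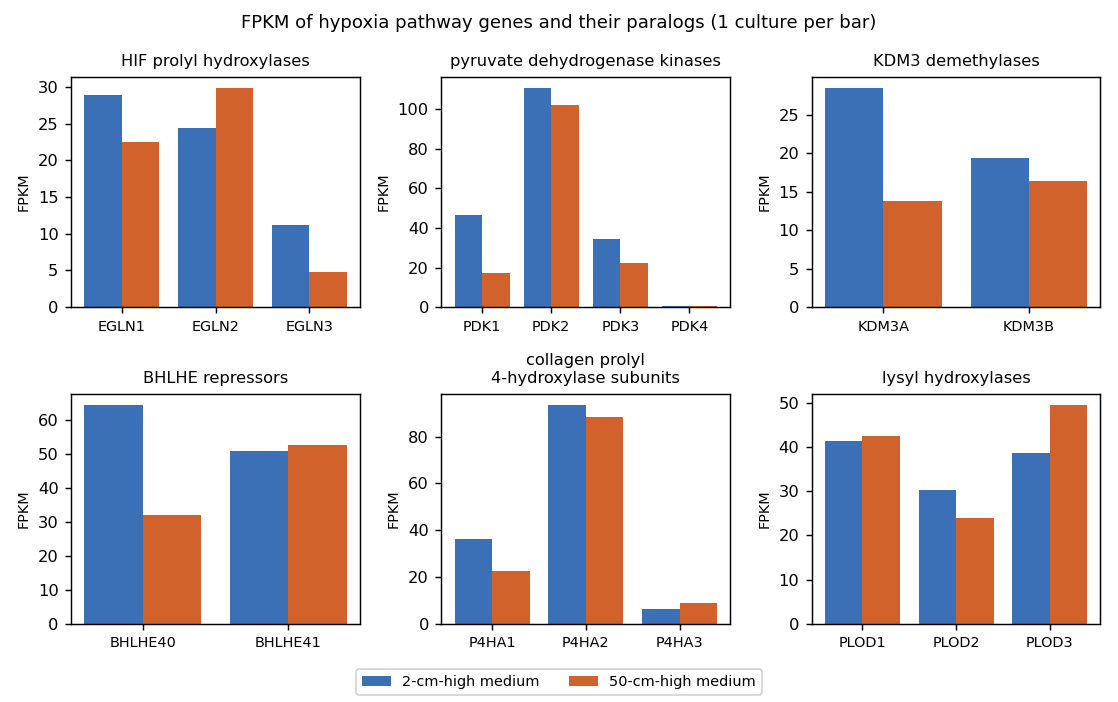
FPKM (y axis, linear from 0) of hypoxia pathway genes and their paralogs in 6 gene families, with blue bars for the 1 culture in 2-cm-high medium and orange bars for the 1 culture in 50-cm-high medium. The taller gene of the pair changes between cultures for EGLN1 and EGLN2, KDM3A and KDM3B, BHLHE40 and BHLHE41, and PLOD1 and PLOD3, whereas PDK2 and P4HA2 stay the highest of their families.

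Of the secreted factors, ADM and ANGPTL4 went in opposite directions, while VEGFA and STC2 differed by less than 1.5-fold. ADM, the precursor of the vasodilator peptide adrenomedullin, had 12.3 FPKM at 2 cm and 5.19 FPKM at 50 cm (ratio 0.421, rank 60 from the lowest). Its relative ADM2 was also lower, with 7.78 and 4.46 FPKM (ratio 0.573). ANGPTL4, a secreted inhibitor of lipoprotein lipase that fatty acid-sensing receptors induce as well as HIF, had 5.58 FPKM at 2 cm and 9.91 FPKM at 50 cm. Its ratio of 1.78 was the highest of the 32 genes and rank 83 from the highest of all features. VEGFA, the main angiogenic growth factor and one of the best known HIF targets, had 24.1 FPKM at 2 cm and 22.6 FPKM at 50 cm, a ratio of 0.936. VEGFC stood above VEGFA in both cultures, with 38.7 FPKM in each, the same value to the last digit deposited. STC2, a secreted glycoprotein, had 3.34 FPKM at 2 cm and 3.82 FPKM at 50 cm (ratio 1.15). Its paralog STC1 was over 100 times higher, with 580 FPKM at 2 cm and 747 FPKM at 50 cm (ratio 1.29).

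Collagen-modifying enzymes were likewise mixed. P4HA1, a catalytic subunit of collagen prolyl hydroxylase, had 36.1 FPKM at 2 cm and 22.6 FPKM at 50 cm (ratio 0.626). P4HA2, the more abundant subunit, had 93.7 FPKM at 2 cm and 88.5 FPKM at 50 cm (ratio 0.945). Its level was 2.59 times that of P4HA1 at 2 cm and 3.91 times at 50 cm. PLOD2, the lysyl hydroxylase of collagen telopeptides, had 30.3 FPKM at 2 cm and 23.9 FPKM at 50 cm (ratio 0.790). PLOD1 had 41.5 FPKM at 2 cm and 42.4 FPKM at 50 cm (ratio 1.02), and PLOD3, a paralog outside the list, had 38.8 and 49.7 FPKM (ratio 1.28). LOX, which cross-links collagen and elastin outside the cell, was the highest of this group by ratio. It had 31.0 FPKM at 2 cm and 47.5 FPKM at 50 cm (ratio 1.54, rank 199 from the highest), and its log2 ratio of 0.62 became 0.55, short of 1.5-fold, after quantile normalization. The summed FPKM of the 5 enzyme genes was close between the cultures, at 232.6 and 225 (ratio 0.967).

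NDRG1, a stress-induced gene that responds to hypoxia, was the highest of all 35 genes in both cultures. It had 363 FPKM at 2 cm and 301 FPKM at 50 cm (ratio 0.829). ERO1L, the oxidase that drives disulphide bond formation in the endoplasmic reticulum, had 85.0 FPKM at 2 cm and 59.3 FPKM at 50 cm (ratio 0.697). WSB1, a substrate receptor of a ubiquitin ligase, had 58.1 FPKM at 2 cm and 45.5 FPKM at 50 cm (ratio 0.782). ANKRD37, a small ankyrin-repeat protein, had 8.53 FPKM at 2 cm and 4.91 FPKM at 50 cm (ratio 0.576). All 4 genes of this group above the minimum were thus lower at 50 cm (47.4% of all features), and ANKRD37 alone passed 1.5-fold (5.06% of all features). TMEM45A was listed at 0 in both cultures, and PPFIA4 had 0.0555 FPKM at 2 cm and 0.0244 FPKM at 50 cm, too low for its ratio to be read.

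The carbonic anhydrases of the cell surface, which help the cell to dispose of acid, were represented by a high and a low gene. CA12 had 74.99 FPKM at 2 cm and 62.3 FPKM at 50 cm (ratio 0.830). CA9, a marker of hypoxic tumours with little expression in most normal epithelia, had 1.15 FPKM at 2 cm and 0.659 FPKM at 50 cm. The ratio of the CA9 values lay within 0.01% of that given by 12 reads at 50 cm against 23 at 2 cm, although multiples of these numbers give the same ratio. CA14, a paralog outside the list, had 42.0 FPKM at 2 cm and 20.5 FPKM at 50 cm (ratio 0.488). Of 30 paralogs of the listed genes above the minimum, CA14 alone passed 2-fold (1.28% of all features lower and 0.389% higher). Lower by more than 1.5-fold were 5 of those paralogs (5.06% of all features), and none was higher by that much (2.13% of all features). The median log2 ratio of the 30 paralogs was -0.06, with 18 lower and 11 higher, as against 47.4% of all features lower at any size.

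**Figure D4:**
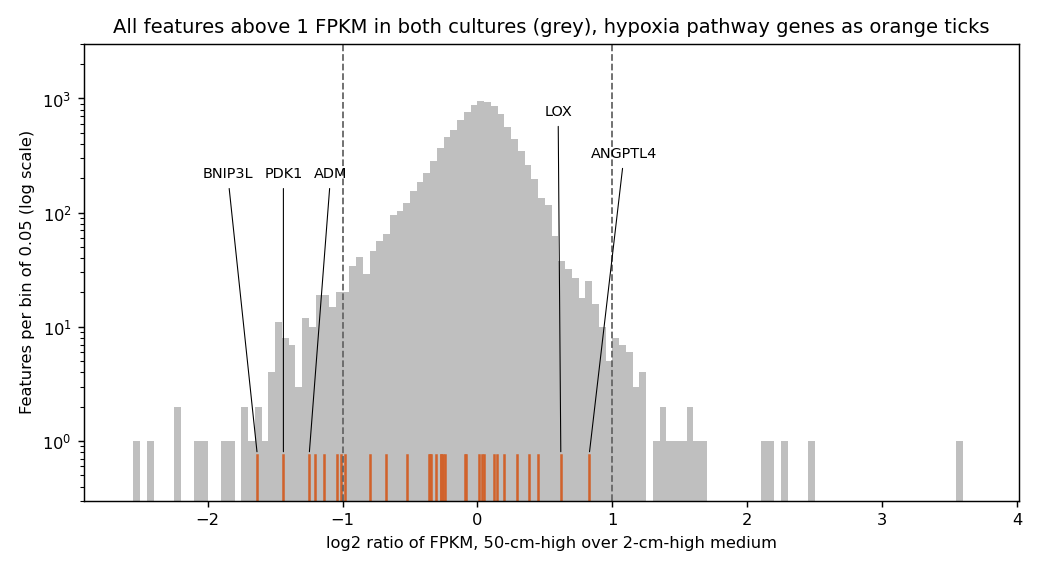
Number of features per bin of 0.05 (y axis, log scale) by log2 ratio of FPKM, 50-cm-high over 2-cm-high medium (x axis), for the 11057 features above 1 FPKM in both cultures, with orange ticks for the 32 hypoxia pathway genes and dashed lines at 2-fold. The ticks spread from BNIP3L at -1.63 to ANGPTL4 at 0.83, and 7 of them lie left of the lower dashed line.

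Further lists of the pathway were compared to see how far the pattern of the targets held outside the list. They had been written with results of these cultures known, the ratios of glycolysis genes among them. Of 19 glycolytic HIF targets, 18 were above the minimum, with a median log2 ratio of -0.38. At 50 cm, 16 were lower and 2 higher, as against 47.4% of all features lower at any size. The aldolase gene ALDOC (38.8 and 9.57 FPKM, ratio 0.247) and SLC16A3, the lactate exporter (30.4 and 12.7 FPKM, ratio 0.419), were lower by more than 2-fold (1.28% of all features). A list of 29 other hypoxia targets above the minimum, neither glycolytic nor among the 36 symbols, did not show this direction in its median. Of these, 12 were lower and 17 higher, and the median log2 ratio was 0.13, against -0.32 for the 24 listed targets. By more than 1.5-fold, in contrast, 5 of the 29 were lower (5.06% of all features) and 2 higher (2.13% of all features). PLAUR, the urokinase receptor, was higher, with 7.64 FPKM at 2 cm and 18.0 FPKM at 50 cm (ratio 2.36). SPAG4, a protein of the nuclear envelope, was lower, with 3.11 FPKM at 2 cm and 1.11 FPKM at 50 cm (ratio 0.357). The sign of the median thus differed between the lists of non-glycolytic targets, and no direction of hypoxia-responsive genes as a class is drawn from either.

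Genes that act with HIF rather than downstream of it lay on both sides of parity. Of 15 other pathway components above the minimum, among them the cullin and RING subunits of the VHL ligase, the coactivators and the chaperones, 5 were lower and 10 higher, with a median log2 ratio of 0.06. None passed 2-fold, as against 1.28% of all features lower and 0.389% higher, and 2 were lower by more than 1.5-fold, as against 5.06% of all features. These were ARNT2 (ratio 0.587) and P4HTM, a membrane-bound prolyl hydroxylase, with 6.90 FPKM at 2 cm and 4.52 FPKM at 50 cm (ratio 0.655). The highest was the chaperone HSP90AA1, with 297 FPKM at 2 cm and 403 FPKM at 50 cm (ratio 1.36). Of the receptors for the secreted factors, only 4 were above 1 FPKM in both cultures, and all 4 were higher at 50 cm. Beside these counts, 47.4% of all features were lower at any size, and 4 genes are too few for a direction to be drawn. The 4 receptor genes ran from the integrin subunit ITGB3 (138 and 159 FPKM, ratio 1.15) to the VEGF co-receptor NRP2 (3.47 and 5.83 FPKM, ratio 1.68). The adrenomedullin receptor CALCRL was listed at 0 in both cultures.

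**Figure D5:**
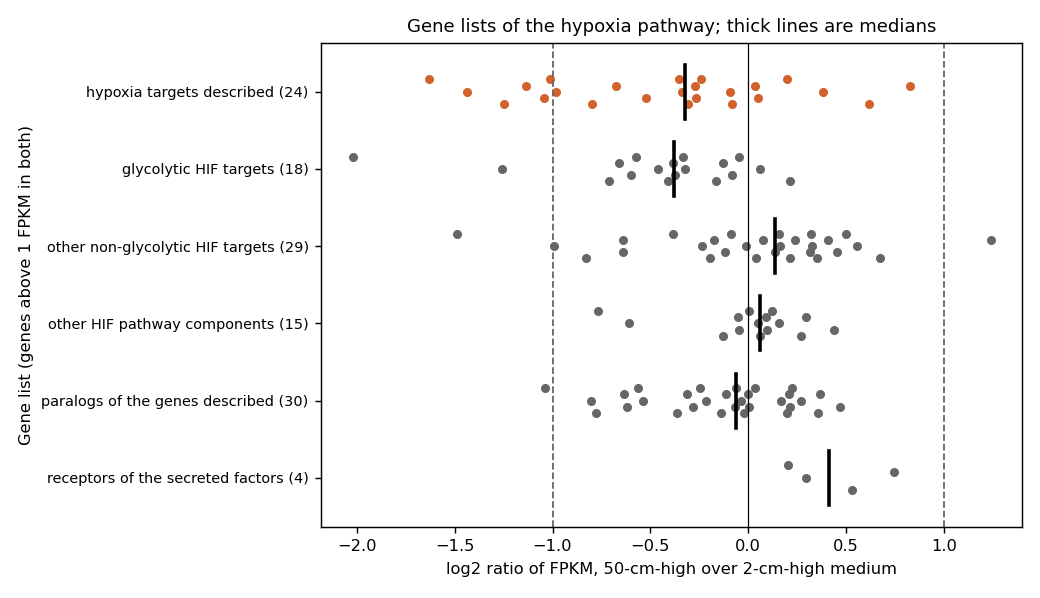
The log2 ratio of FPKM, 50-cm-high over 2-cm-high medium (x axis), of single genes above 1 FPKM in both cultures in 6 lists (y axis, number of genes in brackets), with thick lines at the medians and dashed lines at 2-fold. The medians of the described targets (-0.32) and of the glycolytic targets (-0.38) lie left of 0, and that of the other non-glycolytic targets (0.13) lies right of it.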

How the data were processed

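RNA from 2 MDCK cultures was sequenced by the authors from stranded mRNA libraries with single-end reads, mapped to CanFam3.1 with TopHat2 2.0.13, Bowtie2 2.2.3 and SAMtools 0.1.19, and summarised per gene as FPKM with Cuffnorm 2.2.1. The deposited values are FPKM, with no read counts. The annotation, the scaling method and the treatment of reads from near-identical genes are not given in the sources used here. Ratios were formed directly from these values, with nothing added, for features above 1 FPKM in both cultures. Genes past 2-fold or 1.5-fold were counted beside all features. No test was possible with 1 library per group. The genes, lists and thresholds were chosen with earlier results of these data known. Every listed gene was named, with the genes past 2-fold or the extremes of each further list; P4HTM, paralogs, VEGFC, STC1, HIF3A and CALCRL were named after their values were seen. The value of 1 read was taken from 574 features below 0.1 FPKM. Alternatives were 4 other FPKM minima, pseudocounts of 0.1 and 1, recentring and quantile normalization. A planned promoter search was not run, since no sequence was used here. Python 3.11.15, numpy 2.4.6 and pandas 2.3.3 were used, and the functions were tested on simulated data.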

Additional observations from a re-analysis of the deposited data

How the results depend on the processing

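With a pseudocount of 1, 4 of the listed genes (ADM, BNIP3L, EGLN3 and PDK1) were lower by more than 2-fold instead of 7, because BHLHE40, KDM3A and ZNF395 came just short of the line. The count was 5 at a minimum of 5 FPKM, which 27 of the genes passed, and 8 at a minimum of 0, which added PPFIA4. Under the other 5 alternatives it was 7. No called gene changed direction under quantile normalization. Its shifts were small beside the ratios of the called genes, as for ZNF395 (log2 ratio -1.14 to -1.02), so the absence of a reversal adds no support. The other minima leave each ratio as it is, and an equal pseudocount cannot change its direction. Recentring moved every log2 ratio by only 0.01. Genes lower by more than 1.5-fold numbered 7 to 12, and 2 were higher under every alternative, although quantile normalization put EPAS1 (log2 ratio 0.61) in the place of LOX (0.55). The median log2 ratio of the listed genes kept its sign, but that of the HIF subunits changed from 0.12 to -0.07, and that of the secreted factors from 0.05 to -0.10, at a minimum of 5 FPKM, because EPAS1 and STC2 drop out. The median of the oxygen sensors and VHL, set by HIF1AN, changed from 0.01 to -0.00409 on recentring, and PLOD1 from 0.03 to -0.03 under quantile normalization. Over all features, 43 to 765 were lower (142 as reported) and 19 to 451 higher (43) by more than 2-fold, and 197 to 1712 were lower (559) and 139 to 864 higher (236) by more than 1.5-fold, lowest at a minimum of 5 FPKM and highest at 0, so the share beside the count of listed genes depends on the minimum. The number of reads is unknown, and genes below 5 FPKM are the least certain. No paired analysis was possible because each group has 1 sample.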
